A study of Mus musculus with 29 samples.

Results

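The 9 genes described here encode subunits of the potassium channels that repolarize the heart: Kcnd2, Kcnip2, Kcna5, Kcnv2, Kcnq1, Kcnh2, Kcnj2, Kcnj3 and Kcnj11. They were chosen by symbol as rows of a mouse heart expression table with 29,955 genes, and the rule uses no measured value. All 9 were found, and all 9 averaged 0.5 FPKM or more across libraries, as did 12,759 genes of the table, which were tested. Kcnv2 had the lowest mean of them, 1.07 FPKM, and Kcnj11 the highest, 35.6 FPKM.

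Hearts came from male C57BL6 mice of the same strain in every group. Heart failure (HF) was induced from an age of 3 months with L-NAME, a blocker of nitric oxide synthase, at 0.3 mg/ml and NaCl at 1% in the drinking water over 5 weeks, and with 0.7 mg/kg/day Angiotensin II from an osmotic pump that was implanted after the first week and runs for 28 days. Recovering mice went back to normal water and their pumps ran out. Control mice were kept without the induction protocol. Poly(A) RNA was sequenced, and 24 libraries in 8 groups were used: HF week 3 (n = 2), HF week 5 (n = 3), Recovery week 7 (n = 2), Recovery week 9 (n = 2), Recovery week 11 (n = 3), Recovery week 13 (n = 2), Recovery week 19 (n = 5) and Control week 19 (n = 5). Library numbers only tell the columns of a group apart and point to no labelled animal, and p values measure the spread between these libraries. Control means Control week 19 throughout, a group 14 weeks older than the HF week 5 hearts. HF and age therefore cannot be told apart in comparisons of these groups. The same holds for recovery and age wherever groups of different study weeks are compared.

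Cardiac myocytes repolarize through several potassium currents. The transient outward current flows early through channels of the Kcnd family that carry the calcium-binding subunit encoded by Kcnip2, delayed rectifiers (Kcna5, Kcnq1, Kcnh2) carry current later in the action potential, and inward rectifiers (Kcnj2) hold the resting potential. Loss of transient outward current is a long known feature of the failing ventricle, and in mice the early currents dominate repolarization.

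The libraries were not alike. In HF week 3 library 1 only 12,816 genes were above 0, where the other 23 libraries had 16,339 to 18,091, and relative depth, read from the steps between low values, was 0.728 to 1.40 over those 23; the absolute depth is unknown. Control week 19 library 5 followed the GC content of genes (Spearman rho = -0.42 across genes, against -0.18 to 0.29 in the other libraries). The relation to transcript length was widest in Recovery week 19, with a rho of 0.48 in library 1 and -0.43 in library 5, and was -0.38 in both Recovery week 13 libraries. The labels name the tissue as whole heart and whole ventricle and the methods name apical portions, but atrial genes were high in 3 libraries and present at a lower level in another. The summed level of the 7 atrial markers other than Nppa was 40,531 FPKM in HF week 5 library 1 and 7,994 and 14,260 FPKM in HF week 3, against 36.9 to 73.7 FPKM in the recovery and control libraries; HF week 5 library 2 lay between at 462 FPKM, and library 3 had 46.1 FPKM. Of the atrial markers tested, 6 of 7 were called higher in HF week 5 than in control, and Nppa and Bmp10 were listed at 0 in both HF week 3 libraries. Of 10 ventricular myocyte markers, Myh6, Myl2, Actc1 and Mb were listed at 0 in every Control week 19 library. Myh6 was also listed at 0 in all HF week 5 and Recovery week 19 libraries and Mb in all those of Recovery week 19, while Myh6 was 106,010 to 316,200 FPKM in Recovery weeks 7 to 13. Tnnt2 averaged 8,482 FPKM in Control week 19 and 7,421 FPKM in HF week 5.

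Start-site sequences from RefSeq (GRCm38.p6; 250 bases before to 50 after the start) were found for 6 of the 9 genes, and Kcnv2, Kcnq1 and Kcnj11 were not matched. Shown are those of Kcnip2 and Kcnd2, the auxiliary and the pore subunit of the transient outward channel, which were both lower in HF week 5, and that of Kcna5, which did not pass the test. Capitals mark the motifs GGGCGG and CACCTG on either strand. They lie at chr19:45816014-45816313 (minus strand), chr6:21215096-21215395 (plus strand) and chr6:126535506-126535805 (minus strand).
Kcnip2: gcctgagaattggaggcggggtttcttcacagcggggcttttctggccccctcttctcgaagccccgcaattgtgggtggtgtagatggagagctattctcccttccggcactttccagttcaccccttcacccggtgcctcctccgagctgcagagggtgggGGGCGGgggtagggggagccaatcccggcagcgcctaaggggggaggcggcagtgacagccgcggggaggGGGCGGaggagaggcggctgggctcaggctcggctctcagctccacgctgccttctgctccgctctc
Kcnd2: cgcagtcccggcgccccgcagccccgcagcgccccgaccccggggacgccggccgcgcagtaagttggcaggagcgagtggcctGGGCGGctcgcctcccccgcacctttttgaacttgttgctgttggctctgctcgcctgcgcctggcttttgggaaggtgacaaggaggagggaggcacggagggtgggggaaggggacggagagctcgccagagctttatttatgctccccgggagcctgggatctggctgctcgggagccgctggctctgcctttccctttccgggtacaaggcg
Kcna5: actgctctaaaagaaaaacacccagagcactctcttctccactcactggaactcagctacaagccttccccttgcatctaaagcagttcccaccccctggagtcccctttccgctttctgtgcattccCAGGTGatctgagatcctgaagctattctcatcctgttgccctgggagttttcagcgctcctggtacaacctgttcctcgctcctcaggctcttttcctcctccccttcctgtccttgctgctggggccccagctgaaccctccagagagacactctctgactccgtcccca

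GGGCGG, a GC box, was found in 5 of the 6 promoters and in 35.7% of 32,851 promoters of the same length. Kcnip2 holds 2 copies, Kcnd2 1 copy and Kcna5 none. CACCTG, an E-box, was found in Kcna5 alone among the 6 and in 20.2% of all promoters. TATAAA (13.6% of all promoters) and AGATAA (11.2%) were in none of the 6. No motif overlapped another. The Kcna5 window had 55.0% G and C with an observed to expected CpG ratio of 0.204, against 67.0% and 0.541 for Kcnip2 and 68.7% and 0.74 for Kcnd2; the medians over all promoters were 52.7% and 0.384. These are descriptions of letters only.

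In HF week 5, 4 of the 9 genes were lower than in Control week 19, and none was higher: Kcnip2, Kcnj11, Kcnd2 and Kcnj3. Over all genes tested 12.4% were called lower and 11.6% higher. The median log2 fold change was -0.61 over the 9 genes and 0.04 over all genes tested. Without HF week 5 library 1, 4 genes were again called, but Kcnd2 was replaced by Kcnq1. RNA of a whole tissue piece was measured, so that fewer myocytes and less RNA per myocyte cannot be told apart.

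**Figure D1:**
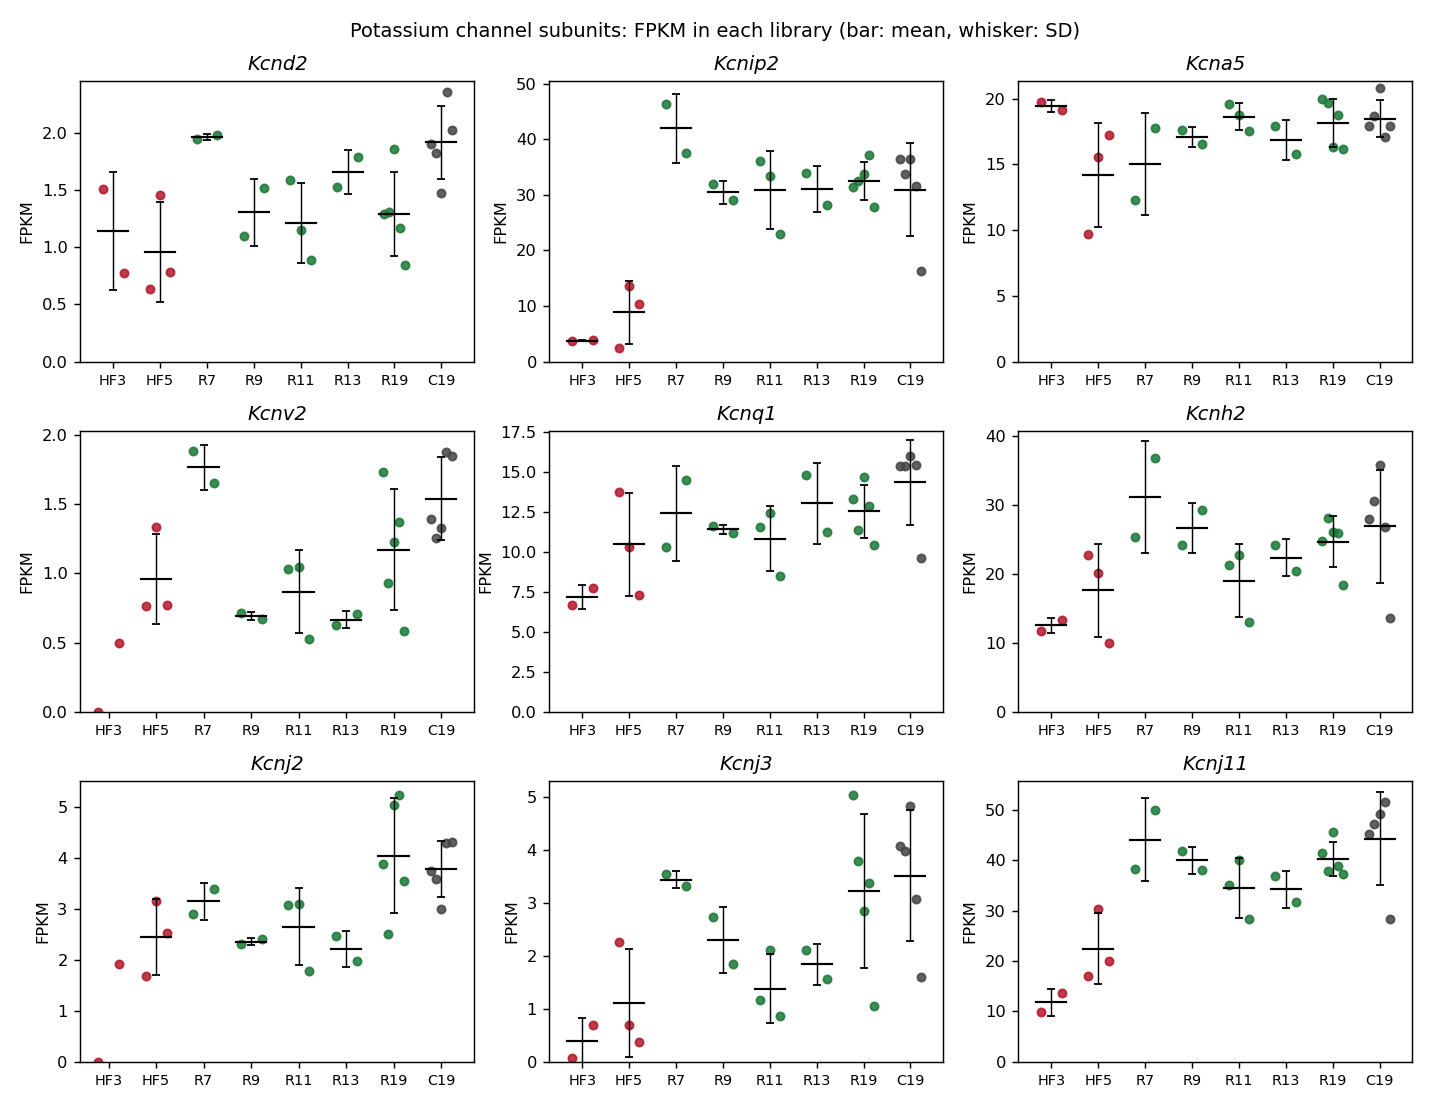
FPKM of the 9 genes in each library (points) by group on linear axes from 0: HF3 and HF5, HF weeks 3 and 5 (red); R7 to R19, Recovery weeks 7 to 19 (green); C19, Control week 19 (grey). Bars are means and whiskers SD, left out where a library is listed at 0; Kcnip2 sits at 2.50 to 13.6 FPKM in HF5 and at 16.4 to 36.5 FPKM in C19.

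Kcnip2 encodes the calcium-binding subunit that brings Kcnd channels to the membrane and slows their inactivation. Its level was 36.5, 33.8, 36.4, 31.6 and 16.4 FPKM in the 5 control libraries and 2.50, 13.6 and 10.4 FPKM in the 3 HF week 5 libraries. Every HF library lay below every control library, which held for 14.7% of all genes tested, and control library 5 was the one nearest to HF. The mean fell from 30.9 ± 8.38 to 8.83 ± 5.70 FPKM (SD, n = 5 and n = 3). The log2 fold change was -1.97 (SE 0.343, limma with Benjamini-Hochberg adjustment, adjusted p = 0.000633), that is 3.92-fold lower. Counting Kcnip2 itself, 0.259% of all genes tested had a log2 fold change as low or lower. Library 1, which had the highest atrial markers, had the lowest value; without it the log2 fold change was -1.29 (limma, adjusted p = 0.00269). Kcnip2 was already at 3.70 and 3.81 FPKM in HF week 3, a log2 difference of -2.83 (SE 0.393; limma, adjusted p = 1.56e-05).

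Kcnd2 encodes the pore subunit of the same channel. The controls held 1.90, 1.83, 1.48, 2.36 and 2.02 FPKM and the HF week 5 libraries 0.633, 1.46 and 0.784 FPKM. The groups did not overlap, but HF library 2 came within 0.02 FPKM of control library 3. The log2 fold change was -0.76 (SE 0.207; limma, adjusted p = 0.0124) on the log2(FPKM + 0.5) scale, which understates the change of a gene at this level. The call was lost without HF library 1 (-0.60; limma, adjusted p = 0.101) and without HF library 3 (-0.69; limma, adjusted p = 0.0504). The HF week 3 libraries held 1.51 and 0.774 FPKM, which overlapped with control (log2 fold change -0.59; limma, adjusted p = 0.0453, a call lost in 9 alternatives).

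The related pore Kcnd3, which carries the same current, was 1.80, 1.43 and 0.921 FPKM in HF week 5 and 1.06 to 1.40 FPKM in control, with no call (log2 fold change 0.08; limma, adjusted p = 0.803); its sign turned without HF library 1 and under quantile normalization. The ratio of Kcnd2 to Kcnd3, which cancels the scaling of a library, was 0.351, 1.02 and 0.851 in the HF libraries and 1.06 to 1.93 in control, with no overlap. Library 1 was the lowest of all 24. The ratio of Kcnip2 to Kcnd2 was 3.95, 9.30 and 13.3 in HF week 5 and 8.10 to 24.6 in control, and these ranges overlapped. Ratios were not tested.

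Kcna5 encodes the pore of an ultrarapid delayed rectifier. It was 17.9, 18.7, 20.8, 17.1 and 17.9 FPKM in control and 9.73, 15.6 and 17.2 FPKM in HF week 5. HF library 3 lay within the control range and the other 2 below it, and the log2 fold change of -0.41 (SE 0.147) did not pass the threshold (limma, adjusted p = 0.0508; 0.0175 to 0.449 over the alternatives). Without HF library 1 it was -0.17 (limma, adjusted p = 0.449), and without HF library 2 or 3 it passed, at -0.49 (limma, adjusted p = 0.0407) and -0.56 (limma, adjusted p = 0.0175). In HF week 3 it was 19.8 and 19.1 FPKM, with a log2 fold change of 0.07 and a 95% interval of -0.28 to 0.43. It was the only one of the 9 genes not called there. Kcnv2, a silent subunit that changes the channels it joins, was 0.767, 1.34 and 0.772 FPKM in HF week 5 and 1.26 to 1.88 FPKM in control (log2 fold change -0.49, 95% interval -0.99 to 0.00; limma, adjusted p = 0.139). HF week 3 libraries were listed at 0 and at 0.497 FPKM, and the first of these is the library with the fewest genes above 0.

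Kcnq1 forms the slow and Kcnh2 the rapid delayed rectifier, and both are genes of inherited long QT syndrome. Kcnq1 was 15.4, 15.4, 16.0, 15.4 and 9.60 FPKM in control and 13.8, 10.3 and 7.30 FPKM in HF week 5. Kcnh2 was 28.0, 30.5, 35.8, 26.7 and 13.6 FPKM in control and 22.8, 20.1 and 9.98 FPKM in HF week 5. For both genes only control library 5 fell among the HF libraries, and the other 4 controls lay above every HF library. Neither passed the test with that library (Kcnq1 log2 fold change -0.46, limma, adjusted p = 0.0921; Kcnh2 -0.61, limma, adjusted p = 0.116). Without it both did (Kcnq1 -0.59, limma, adjusted p = 0.0192; Kcnh2 -0.83, limma, adjusted p = 0.0143). Without HF library 3, the lowest for both, the differences shrank to -0.23 for Kcnq1 (limma, adjusted p = 0.448) and -0.26 for Kcnh2 (limma, adjusted p = 0.557). Without HF library 1 they were -0.67 for Kcnq1 (limma, adjusted p = 0.0423) and -0.83 for Kcnh2 (limma, adjusted p = 0.0911). In HF week 3 both were lower than in every control library: Kcnq1 stood at 6.66 and 7.72 FPKM (log2 fold change -0.93; limma, adjusted p = 0.00201) and Kcnh2 at 11.7 and 13.3 FPKM (-1.01; limma, adjusted p = 0.0126). Kcnq1 shares exon sequence with the antisense gene Kcnq1ot1, which reached at most 0.0424 FPKM.

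Among the auxiliary partners, Kcne1, which slows Kcnq1 channels, was 1.38, 2.10 and 1.30 FPKM in HF week 5 and 0.636 to 0.926 FPKM in control. The log2 fold change of 0.67 did not pass the threshold (limma, adjusted p = 0.0759, with 0.017 to 0.247 over the alternatives).

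Of the inward rectifiers, Kcnj2, the pore of the current that sets the resting potential, was 3.75, 3.60, 3.01, 4.30 and 4.33 FPKM in control and 1.68, 3.17 and 2.53 FPKM in HF week 5. HF library 2 overlapped with control library 3, and the log2 fold change of -0.56 (SE 0.336) was not called (limma, adjusted p = 0.238). It was -0.36 without HF library 1 and -0.73 without HF library 2, and was not called in either fit. The related Kcnj12 was 3.43, 2.74 and 3.49 FPKM in HF and 3.96 to 8.38 FPKM in control, without overlap (log2 fold change -0.82; limma, adjusted p = 0.00548).

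Kcnj11 encodes the pore of the ATP-sensitive channel, which couples metabolism to membrane potential. It was 45.1, 47.1, 49.2, 51.5 and 28.4 FPKM in control and 17.0, 30.4 and 20.0 FPKM in HF week 5. Control library 5 lay below HF library 2, and the other 4 controls lay above all HF libraries. The log2 fold change was -0.98 (SE 0.192; limma, adjusted p = 0.00155), and -0.80 without HF library 1 (limma, adjusted p = 0.0201). It stood at 9.92 and 13.7 FPKM in HF week 3 (log2 fold change -1.85; limma, adjusted p = 2.72e-06). Its receptor subunit Abcc9 was lower in HF week 5 as well (log2 fold change -0.83; limma, adjusted p = 0.0375), a call that was lost in 8 alternatives, among them those without HF library 1 and without each of control libraries 1 to 4, and the vascular pore Kcnj8 had a log2 fold change of 0.05. Abcc8, the other receptor, was 15.6, 8.49 and 6.27 FPKM in HF week 5 and 6.44 to 8.72 FPKM in control; only library 1 was above control.

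Kcnj3 encodes a pore of the acetylcholine-gated channel of atrium and pacemaker tissue, which Kcnj5 completes. It was 4.08, 3.99, 4.83, 3.08 and 1.60 FPKM in control and 2.28, 0.688 and 0.367 FPKM in HF week 5, and the groups overlapped through HF library 1 and control library 5. The log2 fold change was -1.43 (SE 0.402; limma, adjusted p = 0.0147). It was -1.92 without HF library 1 (limma, adjusted p = 0.00686), but the call was lost without HF library 2 (limma, adjusted p = 0.0505) or library 3 (limma, adjusted p = 0.0932). Kcnj5 was 15.4, 5.73 and 4.44 FPKM in HF week 5 and 7.12 to 12.5 FPKM in control. The ratio of Kcnj3 to Kcnj5 was 0.148, 0.12 and 0.0826 in HF and 0.225 to 0.461 in control, with no overlap. Myl7, an atrial myosin light chain, was 18,388, 152 and 6.16 FPKM in the same 3 HF libraries. Within the HF week 5 group, Kcnj3, Kcnq1 and Kcnh2, and of the partners Kcnd3, Kcna4, Kcnj5 and Abcc8, were highest in library 1, and Kcnd2, Kcnip2, Kcna5, Kcnv2, Kcnj2 and Kcnj11 lowest there; the part of the atrial genes in these values was not tested. Kcnj3 overlaps in exons with a gene on the other strand, Gm26794, which was not analysed here.

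**Figure D2:**
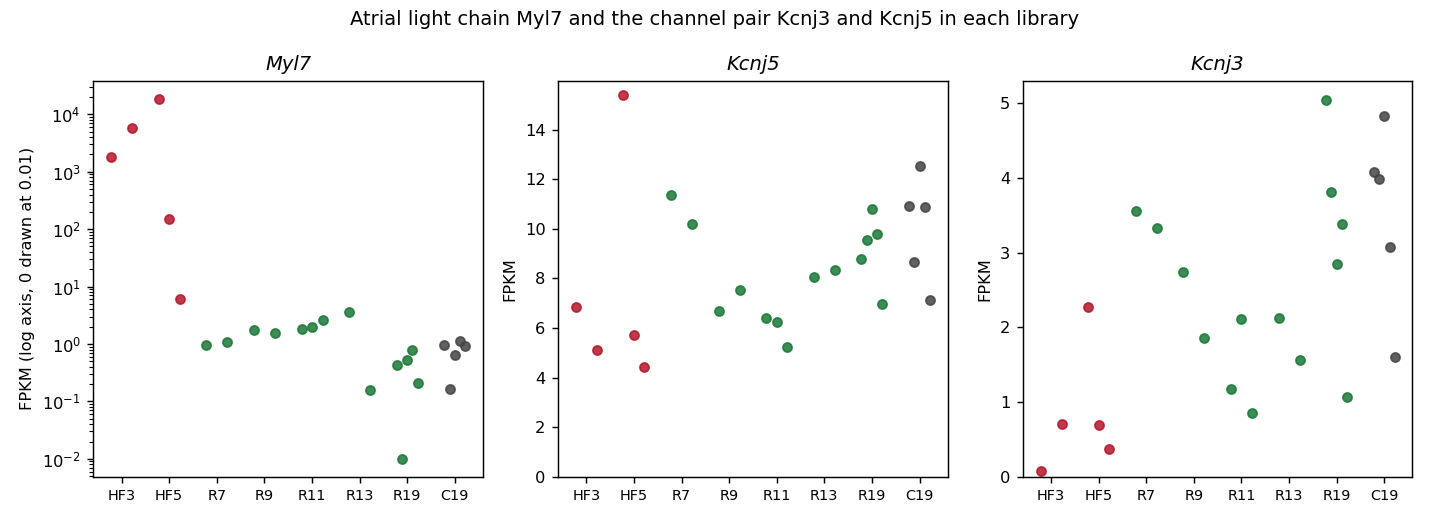
FPKM of Myl7 (log axis, the library listed at 0 drawn at 0.01), Kcnj5 and Kcnj3 (linear axes from 0) in each library by group, named HF3, HF5, R7 to R19 and C19 as above. HF week 5 library 1 is the first point of HF5 and stands at 18,388 FPKM for Myl7, 15.4 FPKM for Kcnj5 and 2.28 FPKM for Kcnj3.

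In HF week 3, 8 of the 9 genes were lower than in control, against 27.6% of all genes called lower and 23.1% called higher, and 7 of the 9 did not overlap with control, against 23.9%. Kcnd2 overlapped. The median log2 fold change was -1.52 over the 9 genes and -0.05 over all genes. Over the 9 genes it was -0.93 without library 1, -2.02 without library 2 and -1.07 with quantile normalization. Kcnj3 was 0.0788 and 0.704 FPKM there (log2 fold change -2.20; limma, adjusted p = 0.000708), and Kcnj2 was listed at 0 and at 1.92 FPKM. Without library 1, in which Kcnj2 is listed at 0, Kcnj2 had a log2 fold change of -0.82 (limma, adjusted p = 0.0532) and Kcnh2 of -0.93 (limma, adjusted p = 0.106), and both calls were lost. Markers moved in the same comparison: the atrial Myl7 was higher by 11.39 (log2), Col1a1 by 1.96 and Col1a2 by 2.34, and of the 6 ventricular markers not listed at 0 in control, Pln (-1.90), Ryr2 (-1.27) and Tnnt2 (-0.76) were lower and none was higher; the 4 listed at 0 in control were not compared. Of the marker lists, 6 of 7 atrial genes were called higher in HF week 3 and 1 lower (Nppa, which was listed at 0 there). Of fibroblast genes 4 of 6 were higher and none lower, of endothelial 4 of 6 higher and 1 lower, of smooth muscle 2 of 4 higher and none lower, of pericyte 2 of 5 higher and 1 lower, of macrophage 1 of 4 higher and 1 lower, and Tbx3 of the conduction system was lower. The pericyte list includes the channel genes Kcnj8 and Abcc9. The part of these markers in the channel values was not tested.

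**Figure D3:**
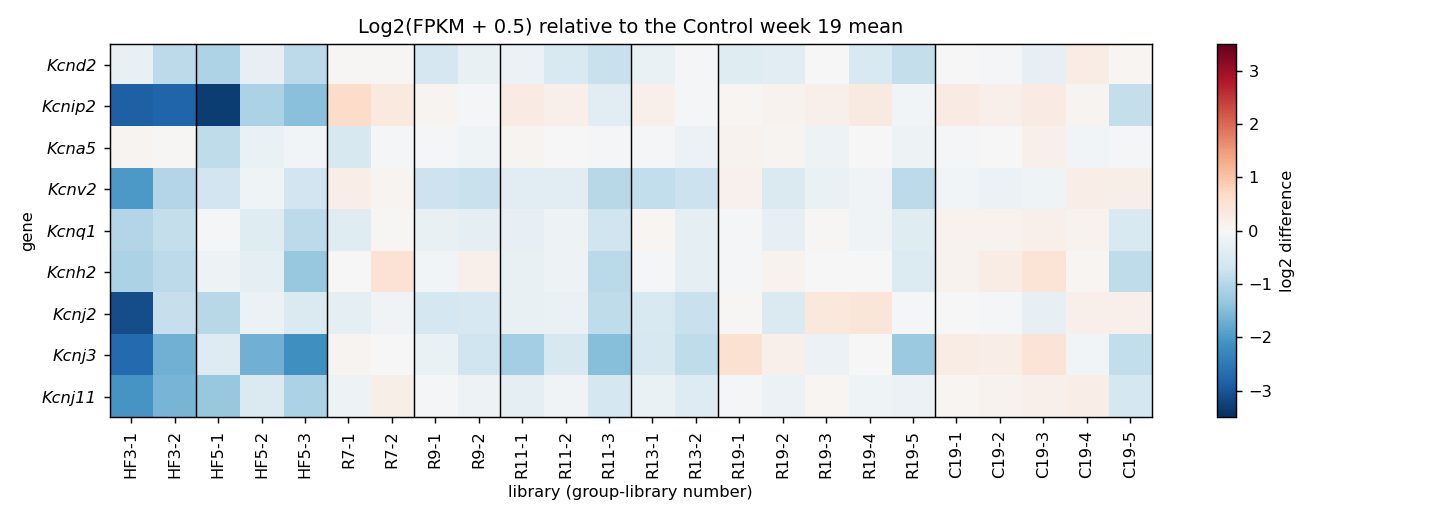
Log2(FPKM + 0.5) of each gene relative to its Control week 19 mean, in all 24 libraries in group order (columns, named by group and library number; vertical lines part the groups). Kcnip2 ranges from -3.33 to -1.11 over the 5 HF libraries, and Kcna5 is at 0.10 and 0.05 in the HF3 libraries.

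After the agents were withdrawn, at Recovery week 7, 3 of the 9 genes were higher than in HF week 5: Kcnip2, Kcnj11 and Kcnd2. Over all genes, 8.05% were called higher. This comparison and the comparison of HF week 5 with control share the HF libraries. Kcnip2 was 46.4 and 37.6 FPKM at week 7, above all 5 controls (log2 difference from HF 2.45, SE 0.429; limma, adjusted p = 0.0017). Kcnj11 was 38.2 and 49.9 FPKM (log2 difference 0.99; limma, adjusted p = 0.011). Kcnd2 was 1.95 and 1.98 FPKM, within the control range (0.80; limma, adjusted p = 0.0438, a call lost in 7 alternatives). All 9 genes had a positive log2 difference, and 6 did not overlap with HF week 5, against 23.4% of all genes: these 3, Kcnh2, Kcnj3 and Kcnv2. Kcnj3 was 3.56 and 3.33 FPKM (log2 difference 1.48; limma, adjusted p = 0.0538). Kcna5, at 12.3 and 17.8 FPKM, had a difference of 0.10 with a 95% interval of -0.29 to 0.48. Only Kcnip2 and Kcnj3 were called without HF library 1, and only Kcnip2 without Recovery week 7 library 2. No gene of the 9 was called when the fit held only these 2 groups, and the adjusted p of Kcnip2 was then 0.0993 with limma.

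Over Recovery weeks 7 to 13, none of the 9 genes was called against control in limma, and 0.0705% of all genes were called. At the unadjusted threshold of 0.05, limma singled out Kcnv2 alone of the 9, against 6.90% of all genes. Kcnv2 was 1.88 and 1.65 FPKM at week 7 but 0.714 and 0.669 FPKM in Recovery week 9, 1.03, 1.05 and 0.525 FPKM in Recovery week 11 and 0.624 and 0.708 FPKM in Recovery week 13. The lowest control held 1.26 FPKM, and the 4 weeks together overlapped with control through week 7. Weeks 9 to 13 were not compared on their own. The log2 difference over the 4 weeks was -0.50 with a 95% interval of -0.88 to -0.12 (limma, adjusted p = 0.568). Kcnj3 was 0.86 to 2.74 FPKM in weeks 9 to 13, against 1.60 to 4.83 FPKM in control (log2 difference over weeks 7 to 13 -0.56, 95% interval -1.20 to 0.09). Kcnj2 was 1.79 to 3.10 FPKM in weeks 9 to 13 and 3.01 to 4.33 FPKM in control (-0.48, 95% interval -1.02 to 0.06). Single weeks were not tested, and the control hearts were older than those of weeks 7 to 13. Recovery week 11 library 3 was the lowest of its group for all 9 genes. In the libraries of Recovery weeks 7 to 13 the 10 most abundant genes held 27.9% to 37.4% of the FPKM. The libraries of weeks 5 and 19 held 14.6% to 18.8%, and those of HF week 3 held 19.8% and 37.5%. Recovery week 7 and HF week 5 thus differ in this share as well. The part of this share in the values was not tested.

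At Recovery week 19, 3 genes were higher than in HF week 5, Kcnip2, Kcnj11 and Kcnj3, against 12.3% of all genes called higher. The recovered hearts were also older, so that recovery and age cannot be told apart here. Kcnip2 was 31.3, 32.5, 33.7, 37.2 and 27.7 FPKM, above every HF library (log2 difference 2.09, SE 0.343; limma, adjusted p = 0.000398). Kcnj11 was 41.5, 37.9, 45.7, 38.8 and 37.3 FPKM, also above every HF library (0.87, SE 0.192; limma, adjusted p = 0.00353). These were the 2 genes of the 9 without overlap, which held for 14.1% of all genes. Kcnj3 was 5.05, 3.81, 2.85, 3.39 and 1.06 FPKM; library 5 fell below HF library 1, and the log2 difference was 1.28 (SE 0.402; limma, adjusted p = 0.0262, lost in 6 alternatives with adjusted p up to 0.148, among them those without HF library 2 or 3 and without Recovery week 19 library 1 or 2). Kcnd2 was 1.29, 1.31, 1.86, 1.17 and 0.842 FPKM, which overlapped with HF week 5 (log2 difference 0.31, limma, adjusted p = 0.285). The difference was 0.15 without HF library 1 and 0.55 without HF library 2, and was not called in either fit.

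None of the 9 genes was called between Recovery week 19 and Control week 19, where 0.0235% of all genes were called. At the unadjusted threshold of 0.05, limma singled out Kcnd2 alone of the 9, against 2.88% of all genes. The log2 difference was 0.12 for Kcnip2 (95% interval -0.50 to 0.74), -0.11 for Kcnj11 (-0.46 to 0.24) and -0.15 for Kcnj3 (-0.88 to 0.58). Over libraries left out, that of Kcnj11 was -0.26 to -0.05. The difference was -0.44 for Kcnd2 (95% interval -0.82 to -0.07), whose recovered libraries overlapped with control through library 3 alone. The narrowest interval was that of Kcna5, 20.0, 19.6, 16.3, 18.7 and 16.1 FPKM at week 19 (-0.03, 95% interval -0.29 to 0.24). For Kcnv2, with 1.73, 0.931, 1.23, 1.37 and 0.582 FPKM, the difference was -0.32 (-0.75 to 0.11). Intervals of this width do not show that levels were alike. Recovery week 19 library 5 had the lowest value of its group for 8 of the 9 genes, all but Kcnj2.

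**Figure D4:**
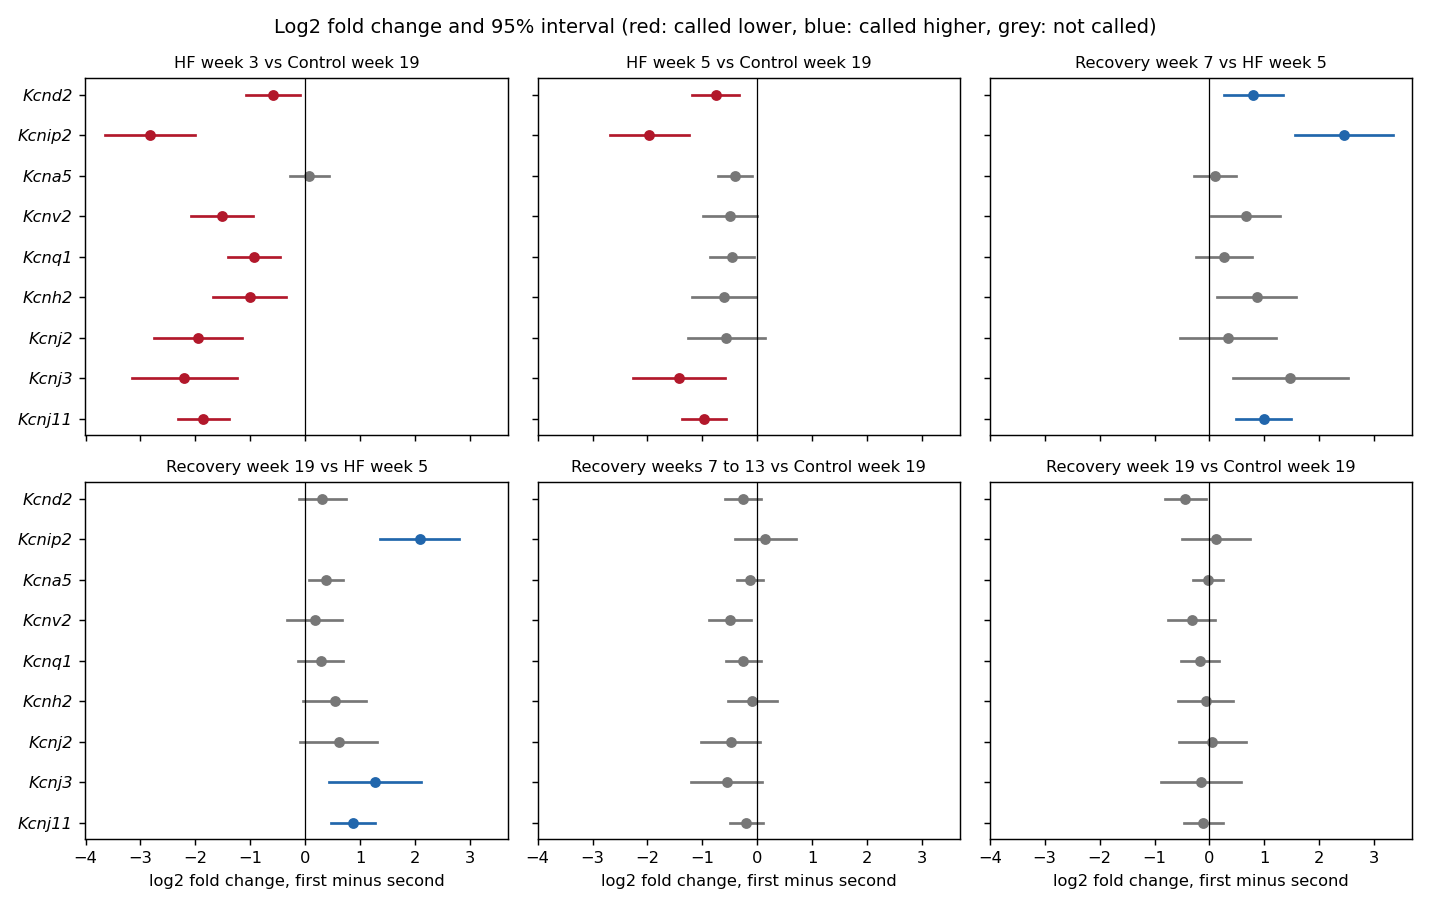
Log2 fold change (points) and 95% interval (lines) of the 9 genes in 6 comparisons, first group minus second, on the log2(FPKM + 0.5) scale; red genes were called lower, blue higher and grey not called at an adjusted p under 0.05. Kcnip2 stands at -1.97 in HF week 5 against control and at 0.12 in Recovery week 19 against control.

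By group means, Kcnip2 was lowest in HF week 3 (3.76 FPKM) and next in HF week 5 (8.83 FPKM), and the 5 recovery groups and control held 30.5 to 42.0 FPKM, with ranges that overlapped among all but Recovery week 7. HF week 3 and HF week 5 were likewise the lowest 2 groups for Kcnj11 (11.8 and 22.5 FPKM), Kcnq1 (7.19 and 10.5 FPKM), Kcnh2 (12.5 and 17.6 FPKM) and Kcnj3, and for Kcnd2 in the opposite order. For Kcnj2 and Kcnv2 the means of Recovery weeks 9 and 13 lay below that of HF week 5. For Kcna5 the highest mean was that of HF week 3 (19.4 FPKM) and the lowest that of HF week 5 (14.2 FPKM), a gap of less than the range of the HF week 5 libraries.

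Of 66 other potassium channel genes in the table, 20 passed the filter and 5 were called lower in HF week 5 and none higher, against 12.4% and 11.6% of all genes. Their median log2 fold change was -0.18. Kcnn2, a small-conductance calcium-activated channel, had the largest fall: it was 0.637, 0.535 and 0.496 FPKM in HF and 1.88 to 4.24 FPKM in control (log2 fold change -1.87; limma, adjusted p = 7.39e-05). Kcna7 (-1.06), Kcnj14 (-0.84) and the already named Kcnj12 and Abcc9 were the other calls; that of Kcnj14 was lost without HF library 1. By type, the calls comprised 1 of 3 voltage-gated pores, 3 of 6 inward rectifiers and receptors, 1 of 2 calcium- or sodium-activated channels, none of 6 auxiliary or silent subunits and none of 3 two-pore channels. Kcna4, another transient outward pore, averaged 0.155 FPKM and was not tested. In Recovery week 7, 3 of the 20 were higher than in HF week 5 (8.05% of all genes), and in Recovery week 19, 5 were (12.3% of all genes). None was lower, and none differed from control in either recovery comparison. In HF week 3, 8 were lower and 2 higher than in control, against 27.6% and 23.1% of all genes.

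**Figure D5:**
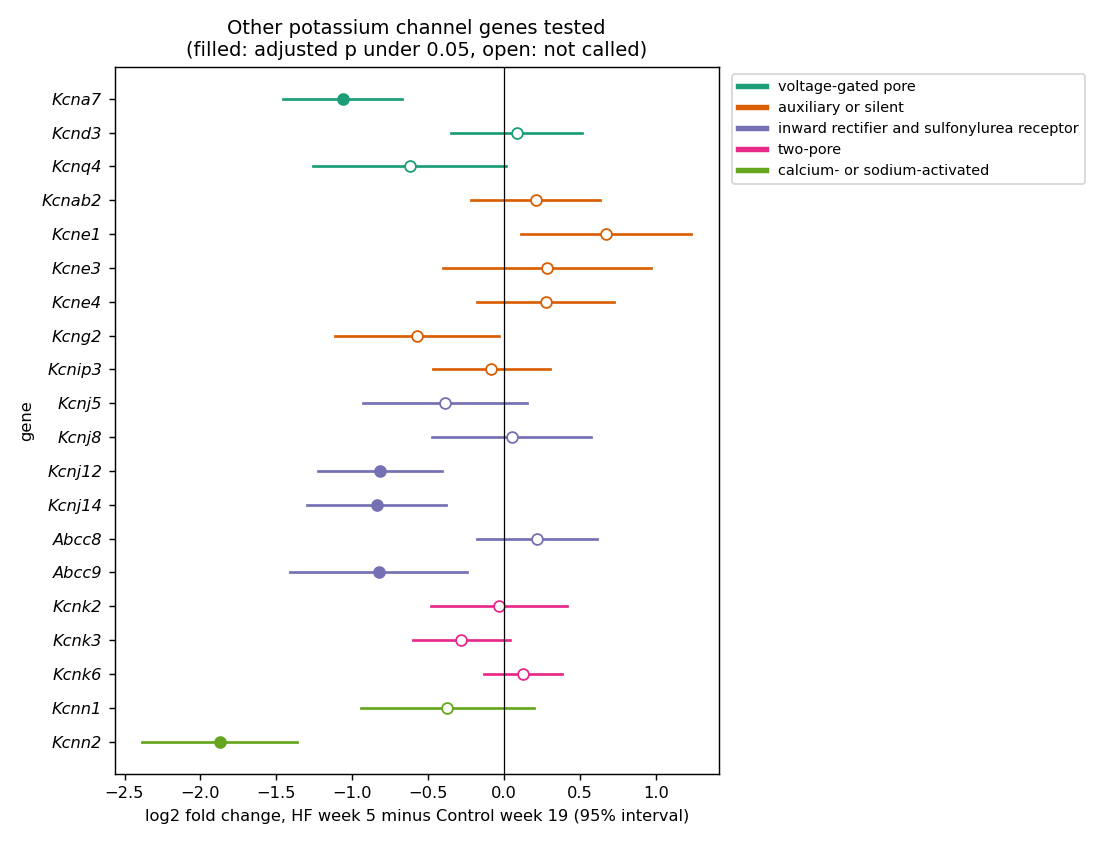
Log2 fold change (points) and 95% interval (lines) of the 20 other potassium channel genes tested, HF week 5 minus Control week 19, coloured by channel type; filled points have an adjusted p under 0.05. All 5 filled points lie below 0, led by Kcnn2 at -1.87.

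Some markers of other cell types were also higher in HF week 5 than in control. Fibroblast markers (4 of 6 higher) summed to 314 to 620 FPKM in HF week 5 and 221 to 323 FPKM in control, endothelial markers (3 of 6 higher) to 356 to 456 and 249 to 316 FPKM, and smooth muscle markers (3 of 4 higher) to 135 to 227 and 69.8 to 99.2 FPKM. Pericyte markers (2 of 5 higher, 1 lower) summed to 45.2 to 98.7 and 74.1 to 86.3 FPKM. They include the channel genes Kcnj8 and Abcc9, and Abcc9 was the 1 called lower. Macrophage markers (none of 4 called) summed to 18.1 to 31.7 and 17.2 to 24.6 FPKM. The fibroblast, pericyte and macrophage sums overlapped between the groups, and the endothelial and smooth muscle sums did not. Of 5 conduction system markers, Tbx3 was the only one tested (not called) and Isl1 was listed at 0 in both groups. Of the 6 ventricular markers not listed at 0 in control, Pln alone was called (-0.87; limma, adjusted p = 0.0157); the 4 listed at 0 there were not compared, and the list was not summed. The part of any of these in the channel values was not tested.

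The genes most like Kcnip2 over the 24 libraries, by the root mean square difference of their log2 levels relative to control, were Pgap2 (0.370), Ogdhl (0.371) and Taco1 (0.379), where Kcnip2 itself departed from its control mean by 1.16. For Kcnd2 they were Slc2a12 (0.234), Lgi1 (0.247) and Gm14492 (0.258), against 0.495 for Kcnd2 itself. These likenesses are descriptions over libraries that share their preparation.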

How the data were processed

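Poly(A) RNA from mouse hearts was sequenced from both ends. Per the study's methods, the authors aligned reads to MGSCv37 with TopHat and computed expression with Cuffdiff; annotation, strand and scaling between libraries are not given in the sources used here. The values deposited by the authors are FPKM, 1 column for each library. The week in a column's name gave its group; the label weeks of recovery, 2, 4, 6, 8 and 14, are study weeks 7, 9, 11, 13 and 19. The 5 columns named for Control week 5 were not used, since 4 samples carry that label, and Recovery week 9 has 2 columns for 3 labelled samples.

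The 9 genes, the channel and marker lists and the tests were chosen with earlier results of these data known. Genes averaging 0.5 FPKM or more were fitted as log2(FPKM + 0.5) with limma 3.58.1 (R 4.3.3), 1 mean per group, eBayes with trend, 16 residual degrees of freedom, two-sided; a gene was called at a Benjamini-Hochberg adjusted p under 0.05 over all 12,759 genes. FPKM give no counts, so no counting error is given; precision is the spread between libraries. All 9 genes were named; of the other channels, the 5 largest falls and rises called in HF week 5 (no rise was called) and the preset partners; Kcnj8 was chosen after its values were seen, and 1 further channel gene was left out of the list, its counts and the figures and is not reported here. GC content and length came from GENCODE vM21 for 93.6% of the genes tested, and promoters from RefSeq (GRCm38.p6), another build than the authors'. On simulated data for HF week 5 against control over 12,759 genes, 72% of 100 genes changed by 1 (log2) and 95% of 100 changed by 2 were recovered. Alternatives covered pseudocount, filter, scaling, samples in the fit, threshold and each library left out; GC and length correction and fits without the HF week 3 libraries or the 3 libraries with the highest atrial markers were added after seeing the data. Figures were drawn with matplotlib 3.10.9 in Python 3.11.15, from tables made with pandas 2.3.3.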

Additional observations from a re-analysis of the deposited data

Results flagged for a closer look

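A sample far from the others of its group was looked for in the 5 libraries each of Control week 19 and Recovery week 19, for each of the 9 genes. The gap of the extreme library to its nearest neighbour was taken as a share of the range of the group. Gap and range were measured on the log2 scale of the fits, so the shares do not follow from the FPKM printed beside them. Chance alone flags about 5% of groups. The share passed the critical value of 0.71 in 4 of 18 groups. In each the extreme library was the lowest. Control week 19 library 5 stood apart for Kcnq1, the slow delayed rectifier (9.60 FPKM, share 0.919), Kcnip2 (16.4 FPKM, share 0.8195) and Kcnj11 (28.4 FPKM, share 0.779). Recovery week 19 library 5 stood apart for Kcnh2, the rapid delayed rectifier (18.4 FPKM, share 0.7105). The transcripts of the 3 genes of the control library hold 56.4% (Kcnip2), 56.9% (Kcnq1) and 57.1% (Kcnj11) G and C, and that of Kcnh2 61.3%. Across genes, levels followed GC content with a Spearman rho of -0.42 in Control week 19 library 5 and 0.15 in Recovery week 19 library 5, and transcript length with -0.17 and -0.43. Of the 2 genes lowest in G and C, Kcnj2 (41.2%) had its highest control value in Control week 19 library 5 and Kcnj3 (43.9%) its lowest.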

How the results depend on the processing

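Of the counts of genes called, 107 of 114 alternative values stayed within 1.5 times the count reported. The others were 7 at an unadjusted p under 0.05 in HF week 5 against control, and 5 with quantile normalization, 0 with only the groups compared and 6 at the unadjusted p in Recovery week 7 against HF week 5; leaving out libraries there gave 1 to 3. The unadjusted p gave 1 each for Recovery weeks 7 to 13 and for Recovery week 19 against control. Leaving out libraries gave 3 to 6 genes in HF week 5 and 6 to 8 in HF week 3 against control. Where this left 1 library in a group, it was assumed to vary like the other groups. For single members, 941 of 1026 values kept direction and call, 34 lost a call, 36 gained one and 15 reversed; Kcnip2 and Kcnj11 in HF week 5 against control kept their call in every alternative run. Reversals, the cause of which was not tested, were of small differences. In HF week 5 against control, Kcnd3 was -0.066 with quantile normalization and -0.076 without the 3 libraries with the highest atrial markers, with -0.076 to 0.27 over libraries left out; Abcc8 was -0.13 and -0.13 to 0.49. Kcna5 in Recovery week 7 against HF week 5 was -0.14 without those 3 libraries and -0.16 to 0.35 over libraries left out. Over libraries left out, Kcnh2 was -0.31 to 0.027 and Kcnip2 -0.063 to 0.22 in Recovery weeks 7 to 13 against control; in Recovery week 19 against control, Kcna5 was -0.061 to 0.017, Kcnh2 -0.30 to 0.046, Kcnj2 -0.040 to 0.19, Kcnip2 -0.092 to 0.19 and Kcnj3 -0.37 to 0.13. No paired analysis was run. Per the study's methods, mice were killed at the time points, so that the groups hold different animals. Low genes (Kcnd2, Kcnv2, Kcnj2, Kcnj3) are limited by unknown depth.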
